A study of Homo sapiens with 6 samples.

Results

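FAS, TNFRSF10C, TNFSF10, BCL2A1 and BMF encode parts of the machinery by which cells receive, resist or carry out a death signal. They were taken by gene symbol from the authors' table of genes changed by mitoxantrone, which held all 5 of them among its 1305 genes. The established lung cancer line NCI-H292, of human origin, was treated for 48 hours with 50 nM mitoxantrone (3 libraries) or with the solvent DMSO at a dilution of 1 in 1000 (3 libraries), and total RNA was sequenced. Mitoxantrone poisons type II topoisomerases and breaks DNA. No other treatment or genetic change is given for either group, and no label states whether each library had its own culture. P-values therefore reflect the spread among these libraries alone, which may be technical. Depth was 14762544 to 15663331 reads per library with mitoxantrone and 15789353 to 17817782 with DMSO. The table lists only genes that the authors found changed, by 1.0 or more on the log2 scale, so a place in it already means a change, and genes of the same families outside it were not analysed here. Of the cell type markers looked up, the epithelial keratin genes KRT8 and KRT18 were in the table, with a summed 1833 to 2191 FPKM (read fragments scaled by gene length and library depth) with mitoxantrone and 742 to 957 FPKM with DMSO; the other 6 epithelial markers were not analysed here.

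Cells die by apoptosis along a pair of converging routes. In the extrinsic route a ligand such as TRAIL, encoded by TNFSF10, or FAS ligand binds a death receptor, which gathers an adaptor and an initiator caspase at its inner domain; decoy receptors such as TNFRSF10C bind TRAIL but carry no working death domain. In the intrinsic route the BCL2 family sets whether the outer mitochondrial membrane stays intact: pro-survival members such as BCL2A1 hold the pore-forming members in check, and BH3-only members such as BMF bind and block the pro-survival ones. p53, which DNA damage activates, is known to raise transcription of FAS and of several TRAIL receptors, NF-κB to raise BCL2A1, and interferons to raise TNFSF10.

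With mitoxantrone both receptors and the pro-survival gene were higher, while the death ligand TNFSF10 and the BH3-only gene BMF were lower. TNFRSF10C rose 5.7-fold, FAS 2.94-fold and BCL2A1 26.7-fold, and TNFSF10 and BMF were 3.99-fold and 3.86-fold lower. All 5 passed an adjusted p of 0.05 (edgeR quasi-likelihood, Benjamini-Hochberg over 18304 tests), as did 92.0% of the table, of which 56.7% of genes passed as higher and 35.3% as lower. The libraries of the groups did not overlap for any of the 5 genes, as for 98.6% of the table. These shares come from a table selected on the same libraries, and the counts for the 5 genes are close to them. Among the 793 genes with a positive fold change BCL2A1 ranked 20 by size, TNFRSF10C 181 and FAS 483; among the 512 with a negative one TNFSF10 ranked 123 and BMF 129. The fold change and rank of BCL2A1 rest on 3 DMSO reads in all. The authors' deposited estimate for it was smaller, at 2.62 on the log2 scale beside 4.74 in the fit used here. With size factors computed over the table, by TMM or DESeq2, FAS was 1.83-fold or 1.48-fold higher, TNFRSF10C 3.53-fold or 2.86-fold and BCL2A1 17-fold or 14-fold, while TNFSF10 was 6.42-fold or 7.93-fold lower and BMF 6.21-fold or 7.67-fold, and all 5 still passed. In bulk RNA, fewer cells that express a gene and less RNA per cell cannot be told apart.

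**Figure D1:**
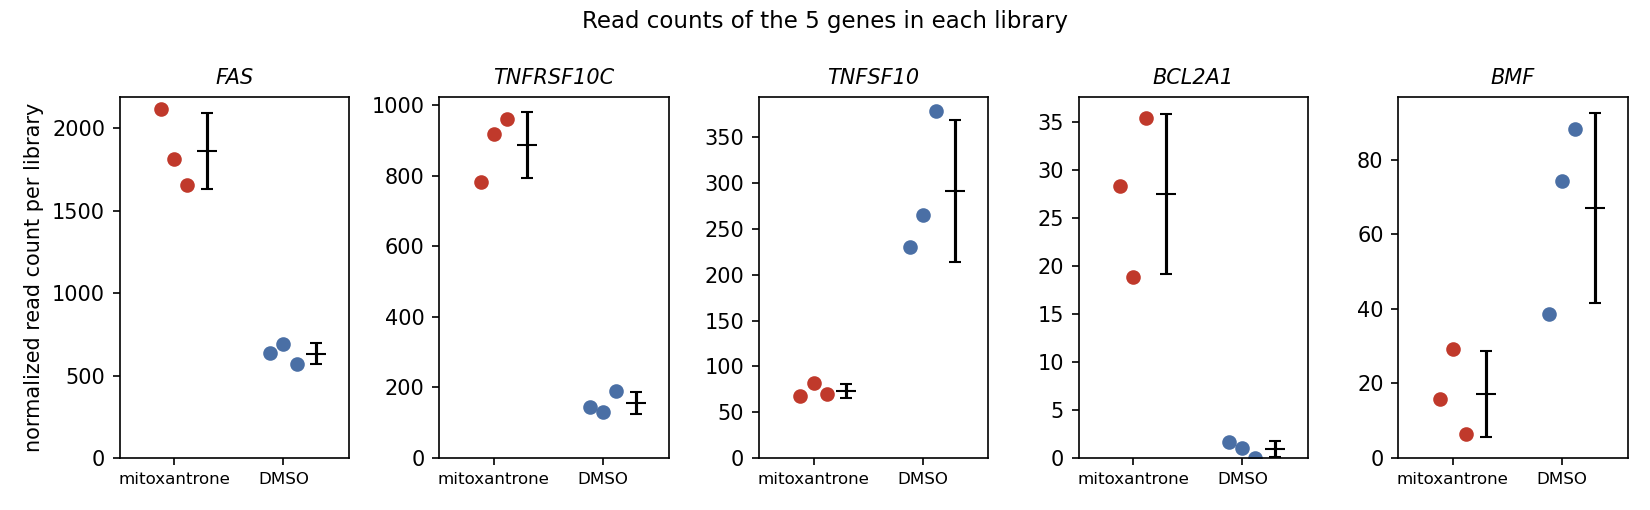
Normalized read counts (reads divided by the library's size factor) of the 5 genes in each of the 3 mitoxantrone and 3 DMSO libraries; points are libraries, the bar beside them is the mean ± SD, and each vertical axis starts at 0 with its own scale. TNFRSF10C lies at 782 to 962 with mitoxantrone and 130 to 191 with DMSO, while BMF shows the closest approach of the groups, at 6.4 to 29.2 and 38.7 to 88.2.

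FAS encodes the death receptor CD95, and its gene (ENSG00000026103) lies on chromosome 10 at 90750414 to 90775542 on the plus strand in the coordinates of the authors' table, whose build is not given in the sources used here. Normalized read counts of FAS were 2116, 1813 and 1659 in the mitoxantrone libraries, against 638, 692 and 568 in the DMSO libraries. Every mitoxantrone library was above every DMSO library by more than the spread within either group. FAS averaged 1863 ± 232 normalized reads with mitoxantrone and 633 ± 62.3 with DMSO (SD, n = 3 each). Its log2 fold change was 1.56 (standard error 0.14, adjusted p 1.6e-06, edgeR quasi-likelihood). With TMM or DESeq2 factors it was 0.87 or 0.57, with adjusted p-values of 6.3e-04 and 0.036 (1.8e-20 to 0.036 over the alternatives). Per length, FAS stood at 32.0 ± 3.24 FPKM with mitoxantrone and 11.4 ± 0.836 FPKM with DMSO (SD, n = 3 each), the highest level of the 5 genes in all 6 libraries. In the GENCODE v29 annotation FAS overlaps ACTA2, the gene of smooth muscle actin, on the opposite strand. ACTA2 had 401, 406 and 365 normalized reads with mitoxantrone, against 132, 155 and 181 with DMSO. Whether the libraries kept the strand is not given, so reads from the stretch that FAS and ACTA2 share cannot be told apart.

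TNFRSF10C encodes TRAIL receptor 3, a decoy held in the outer membrane by a lipid anchor, with no part inside the cell. Its gene (ENSG00000173535) lies on chromosome 8 at 22941868 to 22974950 on the plus strand in the same coordinates. Normalized read counts of TNFRSF10C were 782, 920 and 962 with mitoxantrone, against 145, 130 and 191 with DMSO. The lowest mitoxantrone library was far above the highest DMSO library. The means were 888 ± 93.8 normalized reads with mitoxantrone and 155 ± 31.9 with DMSO (SD, n = 3 each). The log2 fold change of TNFRSF10C was 2.51 (standard error 0.16, adjusted p 5.4e-08, edgeR quasi-likelihood). Its level was 20.8 ± 2.64 FPKM with mitoxantrone and 3.82 ± 0.876 FPKM with DMSO (SD, n = 3 each). The TRAIL receptor genes resemble one another in sequence, and the gene overlaps AC107959.5 and AC107959.4 on its own strand in GENCODE v29, so how reads were divided among them is uncertain.

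TRAIL and its receptors formed a list of 6 genes, of which 4 were in the table. Of these, 3 receptors passed as higher and the ligand as lower, beside 56.7% and 35.3% of the table. TNFRSF10A, a TRAIL receptor with a death domain, had 721, 843 and 750 normalized reads with mitoxantrone, against 353, 272 and 296 with DMSO, and rose 2.51-fold (log2 1.33, standard error 0.14, adjusted p 7.7e-06, edgeR quasi-likelihood). TNFRSF10D, a decoy with a truncated death domain, had 586, 537 and 511 normalized reads with mitoxantrone, against 255, 217 and 228 with DMSO, and rose 2.33-fold (log2 1.22, standard error 0.14, adjusted p 1.3e-05). The groups did not overlap for either receptor, as for 98.6% of the table. With size factors taken over the table itself by the DESeq2 method, the log2 fold changes were 0.34 for TNFRSF10A and 0.23 for TNFRSF10D with adjusted p-values of 0.6 and 1 (2.3e-13 to 0.6 and 1.8e-11 to 1 over the alternatives). That scaling centres genes selected as changed and mostly higher, and it lowered the median log2 fold change of the whole table by 0.99. Of the summed FPKM of these 3 receptors, TNFRSF10C made up 42.1%, 44.5% and 47.9% in the mitoxantrone libraries, against 22.4%, 24.3% and 30.6% in the DMSO libraries. TNFRSF10A made up 34.5%, 36.3% and 33.2% with mitoxantrone and 48.4%, 45.4% and 42.3% with DMSO, and TNFRSF10D 23.4%, 19.2% and 18.9% with mitoxantrone and 29.2%, 30.3% and 27.1% with DMSO. TNFRSF10C thus held the largest share of the 3 in every mitoxantrone library, and TNFRSF10A in every DMSO library. These shares do not depend on the scaling of libraries, and they leave out TNFRSF10B and TNFRSF11B, which were not analysed here.

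TNFSF10 encodes TRAIL itself, a membrane ligand that can also be shed. Its gene (ENSG00000121858) lies on chromosome 3 at 172223298 to 172241297 on the minus strand in the coordinates of the table. Normalized read counts of TNFSF10 were 67.8, 81.3 and 69.8 with mitoxantrone, against 230, 265 and 379 with DMSO. The mitoxantrone libraries lay close together, with a variance 0.676 times that of read counting alone, whereas the variance of the DMSO libraries was 23.8 times that of counting, with replicate 3 the highest. TNFSF10 averaged 73.0 ± 7.26 normalized reads with mitoxantrone and 291 ± 77.7 with DMSO (SD, n = 3 each), which the test put at -1.99 on the log2 scale (standard error 0.2, adjusted p 4.1e-06, edgeR quasi-likelihood). Its level was 1.29 ± 0.132 FPKM with mitoxantrone and 5.41 ± 1.51 FPKM with DMSO (SD, n = 3 each). A processed pseudogene, AC007919.1, overlaps it on the opposite strand in GENCODE v29.

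The other ligands of the TNF superfamily in the table moved the other way. Of 16 such ligands 2 were in the table, and both passed as higher, beside 56.7% of the table. TNFSF15, a ligand of the death receptor DR3, had 525, 504 and 421 normalized reads with mitoxantrone, against 170, 162 and 153 with DMSO, and rose 2.99-fold. TNFSF9, the ligand of 4-1BB, a TNF receptor superfamily member found on T cells, had 88.2, 77.1 and 75.1 with mitoxantrone, against 26.6, 40.2 and 29.1 with DMSO, and rose 2.52-fold. Their adjusted p-values were 1.8e-06 and 0.0010 (edgeR quasi-likelihood). TNFSF9 no longer passed with factors by TMM or DESeq2 over the table, with adjusted p-values of 0.27 and 1 (7.2e-05 to 1 over the alternatives).

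Because interferons are known to raise TNFSF10, genes of that response were looked up. Of 35 interferon-stimulated genes 3 were in the table, TNFSF10 as lower and 2 as higher, beside 35.3% and 56.7% of the table. IFIT2, an antiviral protein gene, had 609, 597 and 550 normalized reads with mitoxantrone, against 257, 237 and 254 with DMSO. OAS2, which encodes an enzyme that activates RNase L, had 54.3, 61.5 and 77.3 with mitoxantrone, against 24.1, 16.5 and 30.8 with DMSO. They rose 2.35-fold and 2.67-fold with adjusted p-values of 7.9e-06 and 0.0025 (edgeR quasi-likelihood). Both calls were lost with DESeq2 size factors over the table, at an adjusted p of 1 for each (1.3e-12 to 1 for IFIT2 and 1.8e-04 to 1 for OAS2 over the alternatives), and that of OAS2 also with TMM, at 0.3. The median log2 fold change of the 3 was 1.23, which is the value of IFIT2 itself, so it cannot be compared with the 1.26 of the whole table.

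BCL2A1 encodes a pro-survival BCL2 protein also called BFL-1 or A1, best known from blood cells. Its gene (ENSG00000140379) lies on chromosome 15 at 80253231 to 80263788 on the minus strand in the coordinates of the table. BCL2A1 had 25, 18 and 33 reads in the mitoxantrone libraries, against 2, 1 and 0 in the DMSO libraries. The groups did not overlap, but the DMSO level rests on 3 reads in all, and a count of 0 allows up to 3 reads, or 0.155 FPKM in DMSO replicate 3. Over the groups, 76 reads with mitoxantrone and 3 with DMSO gave a ratio of normalized reads of 30.1, with a 95% exact counting interval of 9.93 to 149. Normalized reads averaged 27.5 ± 8.36 with mitoxantrone and 0.916 ± 0.865 with DMSO (SD, n = 3 each). The fitted log2 fold change of BCL2A1 was 4.74 (standard error 0.63, adjusted p 5.5e-05, edgeR quasi-likelihood). It was 5.53 without DMSO replicate 1, a 46.2-fold rise (adjusted p 6.1e-04; 9.3e-09 to 0.0011 over the alternatives), and 1.26 on the log2(FPKM + 1) scale, which understates the change of low genes. The authors' deposited table gives 2.62 on the log2 scale (standard error 0.38), where DESeq2 run here with the same size factors gave 4.92. Deposited values of the other genes were also smaller in size than those fitted here. They were 1.52 for FAS, 2.42 for TNFRSF10C, -1.87 for TNFSF10 and -1.58 for BMF. Why the deposited values are smaller was not tested. At 1.55 ± 0.49 FPKM with mitoxantrone and 0.0533 ± 0.0503 FPKM with DMSO (SD, n = 3 each), BCL2A1 stayed a weakly expressed gene in both groups.

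Markers of blood cells were looked up beside BCL2A1. Of 11 such markers CD14 and ITGAM were in the table, with a summed 0.96 to 1.23 FPKM with mitoxantrone and 1.57 to 2.49 FPKM with DMSO. CD14, a monocyte surface protein gene, had 26.0, 27.1 and 23.6 normalized reads with mitoxantrone, against 43.0, 58.7 and 70.3 with DMSO. ITGAM, an integrin gene of myeloid cells, had 12.4, 32.3 and 19.3 with mitoxantrone, against 5.2, 1.0 and 4.3 with DMSO. CD14 was 2.23-fold lower and ITGAM 5.79-fold higher (adjusted p 0.011 and 0.0056, edgeR quasi-likelihood), neither at 0 in any library. The call of CD14 was lost without mitoxantrone replicate 3 or DMSO replicate 3 (adjusted p 0.062 and 0.083) and that of ITGAM without mitoxantrone replicate 2 (0.061), with TMM or DESeq2 factors over the table (0.076 and 0.27) or with limma on log2(FPKM + 1) (0.073), and their part in the result for BCL2A1 was not tested. COL1A1, the 1 of 7 fibroblast markers in the table, had 0.73 to 1.02 FPKM with mitoxantrone and 1.83 to 2.61 FPKM with DMSO.

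BCL2L1, which encodes the pro-survival protein BCL-XL, was the other pro-survival gene in the table, out of 6 in the list. It had 10643, 10797 and 10245 normalized reads with mitoxantrone, against 4377, 5043 and 3676 with DMSO, and rose 2.42-fold (log2 1.27, standard error 0.15, adjusted p 2.0e-05, edgeR quasi-likelihood; 1 with DESeq2 size factors over the table, and 4.6e-15 to 1 over the alternatives). Per length BCL2L1 stood at 195 ± 3.77 FPKM with mitoxantrone and 84.5 ± 10.7 FPKM with DMSO (SD, n = 3 each). Of the summed FPKM of BCL2L1 and BCL2A1, BCL2A1 made up 0.804%, 0.528% and 1.04% in the mitoxantrone libraries and 0.114%, 0.0641% and 0% in the DMSO libraries. BCL2A1 thus had the larger fold change and BCL2L1 nearly all of their summed transcript. The other pro-survival genes of the list were outside the table and not analysed here.

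BMF encodes a BH3-only protein that binds pro-survival BCL2 proteins and is held on the cytoskeleton in unstressed cells. Its gene (ENSG00000104081) lies on chromosome 15 at 40380091 to 40401093 on the minus strand in the coordinates of the table. Normalized read counts of BMF were 15.8, 29.2 and 6.4 with mitoxantrone, against 38.7, 74.2 and 88.2 with DMSO. The groups did not overlap, though mitoxantrone replicate 2 and DMSO replicate 1 came near each other and the variance between replicates was 7.15 times that of counting with mitoxantrone and 11.3 times with DMSO. BMF averaged 17.1 ± 11.4 normalized reads with mitoxantrone and 67.0 ± 25.6 with DMSO (SD, n = 3 each). Its log2 fold change was -1.95 (standard error 0.41, adjusted p 0.0048, edgeR quasi-likelihood), the largest p of the 5 genes. Without mitoxantrone replicate 2 the log2 fold change was -2.59, 6-fold lower (adjusted p 9.7e-04), and without DMSO replicate 3 the adjusted p was 0.045 (1.1e-06 to 0.045 over the alternatives). BMF was at 0.19 ± 0.131 FPKM with mitoxantrone and 0.79 ± 0.298 FPKM with DMSO (SD, n = 3 each). BMF-AS1 overlaps BMF on the opposite strand in GENCODE v29, so antisense reads may be among its counts.

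Of 10 BH3-only genes 2 were in the table, and they moved in opposite directions. PMAIP1, which encodes NOXA, a BH3-only protein that p53 induces, had 891, 739 and 763 normalized reads with mitoxantrone, against 380, 382 and 321 with DMSO. It rose 2.21-fold (log2 1.14, standard error 0.14, adjusted p 2.5e-05, edgeR quasi-likelihood), and with factors by TMM or DESeq2 over the table its adjusted p was 0.11 or 1 (1.6e-10 to 1 over the alternatives). PMAIP1 was at 21.9 ± 1.85 FPKM with mitoxantrone and 10.4 ± 0.916 FPKM with DMSO (SD, n = 3 each), above BMF in every library. The 3 pore-forming or related effectors looked up, BAX, BAK1 and BOK, were outside the table and not analysed here.

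Over the 8 lists of TNF ligands, receptors, adaptors, BCL2 proteins and caspases, 16 of 94 genes were in the table, 14 of them passed as higher, and TNFSF10 and BMF passed as lower. Of all genes in the table, 56.7% passed as higher and 35.3% as lower. The median log2 fold change of the 16 was 1.33. That of the whole table was 1.26, over a larger share of lower genes, so the medians are not like for like. With TMM or DESeq2 size factors over these rows, 10 and 5 of the 16 passed as higher, and 2 as lower each time. Without mitoxantrone replicate 2, DMSO replicate 2 or DMSO replicate 3 the call of EDAR, the ectodysplasin receptor gene, was lost at adjusted p-values of 0.26, 0.067 and 0.11 (0.0020 to 1 over the alternatives), and 13 passed as higher. It was also lost with limma on log2(FPKM + 1) and log2(FPKM + 0.1), at 0.095 and 0.12, where 13 again passed, and with TMM and DESeq2 factors, at 1 each, so that it held in 8 of 15 alternatives. Of 18 death receptors, adaptors and initiator caspases 4 were in the table and all passed as higher, beside 56.7% of the table, and 3 passed with TMM factors and 1 with DESeq2 factors. Besides FAS and TNFRSF10A these were EDAR, with 33.9, 50.0 and 26.8 normalized reads with mitoxantrone against 19.8, 9.3 and 13.7 with DMSO, and CFLAR. CFLAR encodes FLIP, which blocks caspase-8 at death receptors; it had 917, 1013 and 1084 normalized reads with mitoxantrone, against 423, 401 and 440 with DMSO, a 2.38-fold rise (adjusted p 6.1e-06, edgeR quasi-likelihood; 1 with DESeq2 size factors over the table, and 2.1e-14 to 1 over the alternatives). Death receptors and an inhibitor of the same pathway were thus higher in the same libraries.

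**Figure D2:**
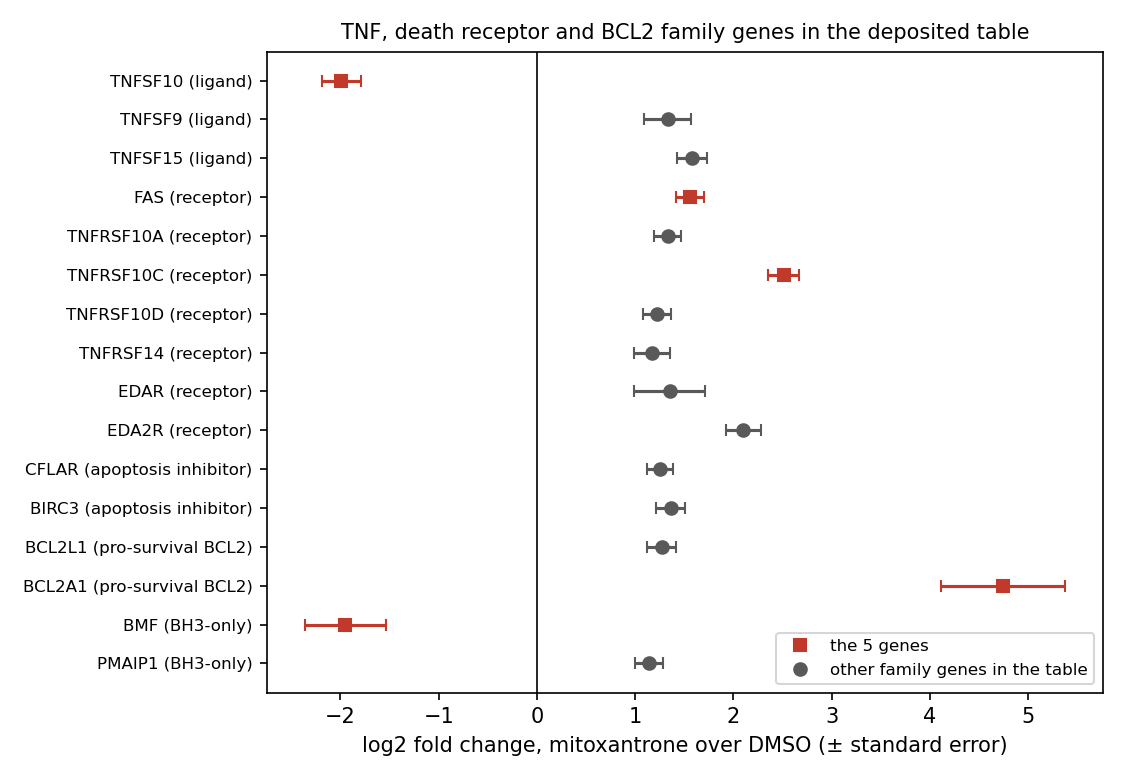
Log2 fold changes (mitoxantrone over DMSO) of the 16 family genes in the table, ordered by role; points are the fitted values and bars their standard errors, with the 5 genes as red squares. TNFSF10 at -1.99 and BMF at -1.95 lie left of 0, and BCL2A1 at 4.74 lies farthest right with the widest bar.

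Of 17 other TNF receptor genes, EDA2R and TNFRSF14 were in the table and both passed as higher, beside 56.7% of the table. EDA2R, a receptor of ectodysplasin A2 that p53 induces, had 1056, 1073 and 1130 normalized reads with mitoxantrone, against 308, 175 and 275 with DMSO, and rose 4.28-fold (adjusted p 7.3e-07, edgeR quasi-likelihood). TNFRSF14, the receptor of the ligand LIGHT, had 201, 176 and 193 with mitoxantrone, against 69.6, 99.9 and 84.8 with DMSO, and rose 2.25-fold (adjusted p 2.0e-04; 0.27 with TMM factors, 1 with DESeq2 factors over the table, and 1.2e-06 to 1 over the alternatives). Of 20 caspases, inhibitors of apoptosis and apoptosome genes, BIRC3, which encodes the ubiquitin ligase cIAP2, was in the table. BIRC3 had 632, 533 and 611 normalized reads with mitoxantrone, against 263, 195 and 232 with DMSO, and rose 2.57-fold (adjusted p 9.5e-06; 0.52 with DESeq2 size factors over the table, and 1.0e-12 to 0.52 over the alternatives).

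FAS and TNFRSF10C also belong to a list of 23 apoptosis genes that p53 activates. Of these, 11 were in the table and 11 passed as higher, beside 56.7% of the whole table, with a median log2 fold change of 1.33; TNFRSF10C had the largest fold change among them, followed by EDA2R. BCL2A1 belongs to a list of 21 NF-κB targets in survival and feedback, of which 8 were in the table and 8 passed as higher, beside the same 56.7%, with a median of 1.38. By the fit used here the largest rise there besides BCL2A1 was that of TNFAIP3, which encodes the NF-κB feedback inhibitor A20. In the authors' deposited estimates TNFAIP3 stood above BCL2A1, at 2.79 and 2.62 on the log2 scale. TNFAIP3 had 892, 1074 and 1030 normalized reads with mitoxantrone, against 174, 118 and 108 with DMSO, and rose 7.46-fold (adjusted p 3.6e-08, edgeR quasi-likelihood). Of the 11 and the 8, TMM factors over the table left 8 and 6 as higher, and DESeq2 factors 4 and 3, with none lower. The whole-table median of 1.26 covers 793 genes with a positive fold change and 512 with a negative one. The genes of these lists in the table all passed as higher, so their medians cannot be compared with it like for like. The table itself holds 1305 genes out of 18304 tests, and whether either list is over-represented in it was not tested.

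Levels per length placed the 5 genes in a different order in the 2 groups. With mitoxantrone the order was FAS, TNFRSF10C, then BCL2A1 and TNFSF10, whose libraries overlapped at 1.06 to 2.04 and 1.17 to 1.43 FPKM, and BMF last. With DMSO the order was FAS, TNFSF10, TNFRSF10C, BMF and BCL2A1 in each library, where TNFSF10 at 4.39 to 7.14 FPKM and TNFRSF10C at 3.04 to 4.77 FPKM overlapped across libraries but not within one. Gene lengths behind these values are those of the table, from 1089 bases for BCL2A1 to 5447 for BMF, and CFLAR at 22528 bases has a length that lowers its level.

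**Figure D3:**
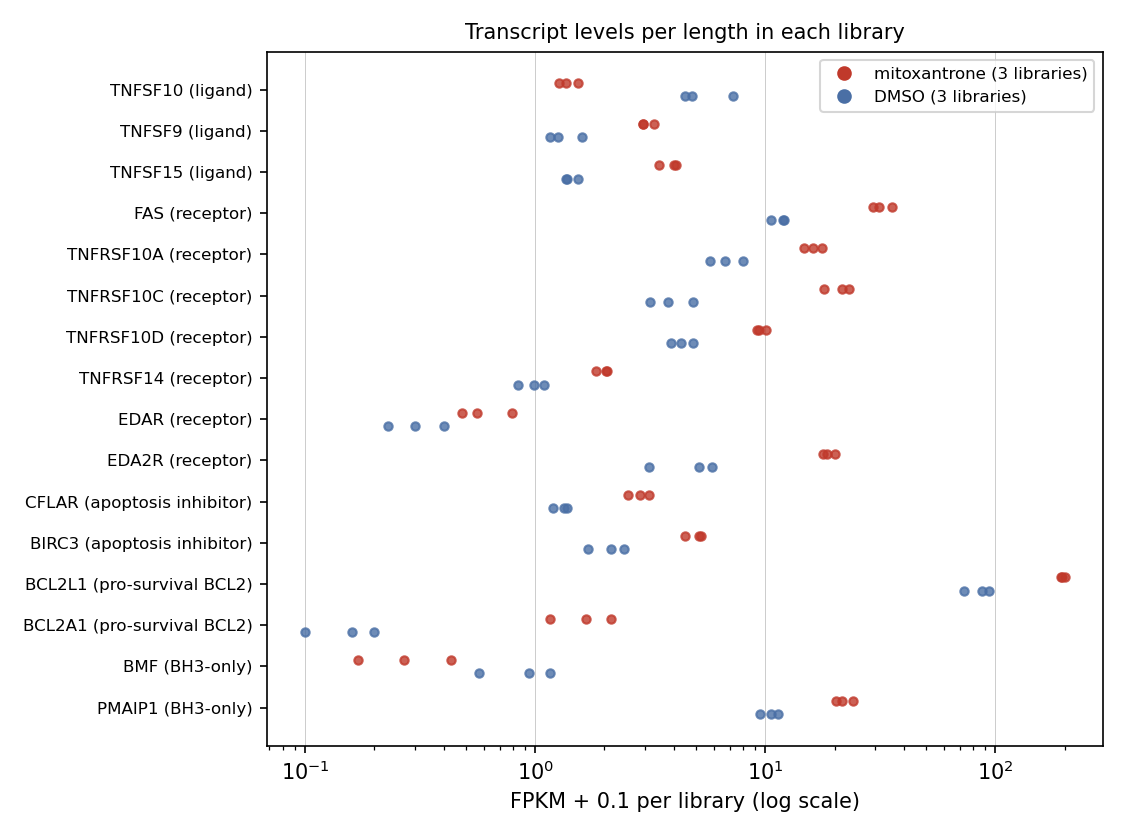
FPKM + 0.1 in each library (log axis) of the 16 family genes in the table, with mitoxantrone libraries in red above DMSO libraries in blue for each gene. BCL2L1 is the highest at 192.38 to 199.62 FPKM with mitoxantrone, and the blue points of TNFSF10 and BMF lie right of the red ones.

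A ratio of genes within a library does not depend on how libraries were scaled unless a constant is added, and 3 were computed, the third with a constant. The FPKM of TNFRSF10C relative to TNFSF10, the decoy against its ligand, was 15.3, 15.0 and 18.3 with mitoxantrone, against 0.834, 0.648 and 0.668 with DMSO. Decoy transcript thus exceeded ligand transcript in every mitoxantrone library and in no DMSO library. The ratio of FAS to TNFSF10 was 30.4, 21.8 and 23.2 with mitoxantrone, against 2.70, 2.55 and 1.46 with DMSO. The ratio of BCL2A1 to BMF, with 0.1 FPKM added to both because BCL2A1 is listed at 0 in 1 library, was 6.15, 2.7 and 12.6 with mitoxantrone, against 0.351, 0.17 and 0.0862 with DMSO. The mean log2 ratios differed between mitoxantrone and DMSO by 4.5, 3.53 and 5.10 in this order, each with p = 0.1 in a two-sided exact permutation test and 0.1 after adjustment over the 3 ratios. That is the smallest p that 3 libraries against 3 can give. Each ratio sets a gene higher in all mitoxantrone libraries over a gene lower in all of them, from a table selected on these libraries. The separation of the groups and this p were thus fixed by the choice of genes. The sizes of the differences largely restate the fold changes given above, which selection had set at 1.0 or more on the log2 scale for each gene. The size of the third depends on the constant: the difference for BCL2A1 to BMF was 1.84 with 1 FPKM added, a setting chosen after seeing the data, and 6.01 with normalized counts and 1 read added. BCL2A1 is listed at 0.1, 0.06 and 0 FPKM in the DMSO libraries, so the constant is at least as large as its level in each. BMF is listed at 0.17, 0.33 and 0.07 FPKM in the mitoxantrone libraries, so the constant weighs on those ratios too. In DMSO replicate 3 the BCL2A1 term is the constant alone.

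**Figure D4:**
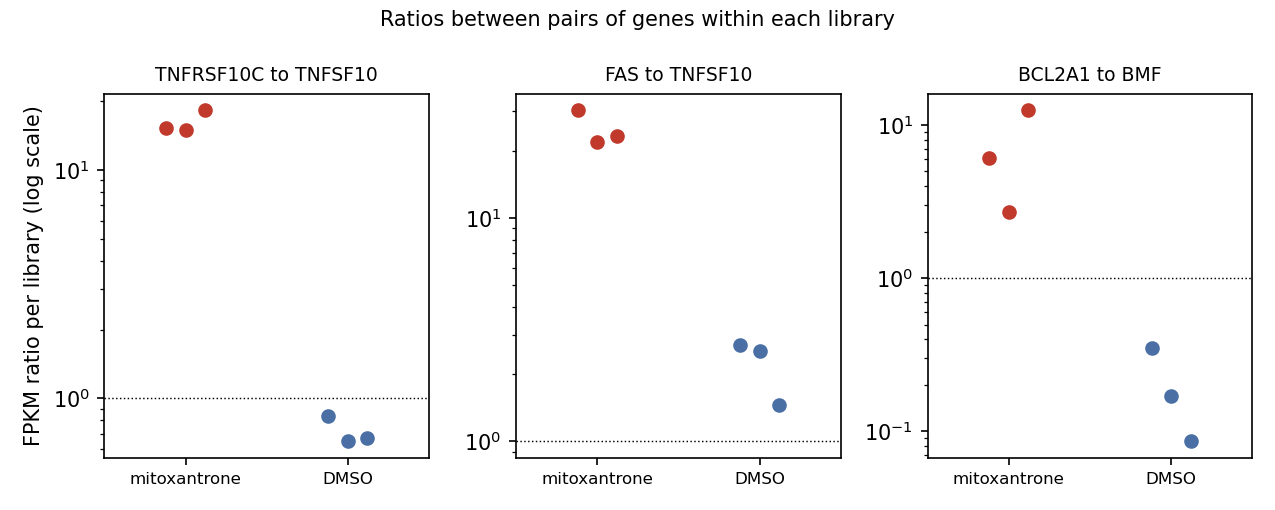
FPKM ratios between pairs of genes in each library (log axis), with mitoxantrone left of DMSO; points are libraries and the dotted line marks a ratio of 1. The ratio of TNFRSF10C to TNFSF10 lies at 15.0 to 18.3 with mitoxantrone and 0.648 to 0.834 with DMSO, and the dotted line falls between the groups for BCL2A1 to BMF as well.

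Start-site windows of 250 bases before to 50 after each start were available from RefSeq (GRCh38.p14) for 4 of the 5 genes. They were searched on both strands for GAAANNGAA, a core that interferon regulatory factors bind. It matched at 2 places in the window of TNFSF10, at 1 in that of BCL2A1 and in no window of FAS (3 windows) or BMF (2 windows); 8.11% of 35116 human windows of the same length hold it. The NF-κB consensus, held by 11.3% of windows, matched at 1 position in 1 of the 3 FAS windows and in 1 of the 2 BMF windows, and in neither TNFSF10 nor BCL2A1. The stretches that hold the interferon core are shown because they belong to a gene that fell and a gene that rose. Each is written 5′ to 3′ along the gene, from 25 bases before the first match; capitals mark the matches, which read on the opposite strand of the gene. The TNFSF10 stretch is at chr3:172523451-172523641 on the minus strand and runs from -211 to -21 relative to the start site, and the BCL2A1 stretch is at chr15:79971254-79971353 on the minus strand, from -157 to -58.
TNFSF10: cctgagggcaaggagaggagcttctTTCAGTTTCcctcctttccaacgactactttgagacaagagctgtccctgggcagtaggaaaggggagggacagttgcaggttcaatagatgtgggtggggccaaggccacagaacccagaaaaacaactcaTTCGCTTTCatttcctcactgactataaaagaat
BCL2A1: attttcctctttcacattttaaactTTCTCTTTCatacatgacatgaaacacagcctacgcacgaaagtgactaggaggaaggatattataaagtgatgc
A match describes these letters only; binding was not measured, and the genes with a match moved in opposite directions.

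The genes whose profiles were most like those of the 5 were found among 647 protein-coding genes of the table with a mean of at least 50 normalized reads, by the root mean square difference of log2 values centred on each gene over the 6 libraries. For FAS these were C12orf5, which encodes the metabolic enzyme TIGAR, at a difference of 0.05, and TNFSF15 at 0.08. For TNFRSF10C they were complement C3 at 0.04 and COL17A1, a collagen of epithelial anchoring, at 0.14. C3 had 3994, 4656 and 5040 normalized reads with mitoxantrone, against 806, 682 and 968 with DMSO, so both it and TNFRSF10C were lowest in mitoxantrone replicate 1 and highest among DMSO libraries in replicate 3. For TNFSF10 they were the inhibin subunit genes INHA and INHBB, at 0.15 and 0.16; INHBB had 282, 274 and 291 with mitoxantrone, against 907, 1062 and 1187 with DMSO. For BCL2A1 they were IL8, a neutrophil chemokine, at 0.35 and AREG, a ligand of the EGF receptor, at 0.38. IL8 had 118, 92.7 and 136 normalized reads with mitoxantrone, against 6.87, 11.3 and 4.28 with DMSO, with the highest mitoxantrone and the lowest DMSO value both in replicate 3, as for BCL2A1. The DMSO order of BCL2A1 rests on 2, 1 and 0 reads. Such shared orders, also that of C3 and TNFRSF10C, are what the search selects. For BMF the nearest were FAM46B and PLEKHO1, at 0.50 and 0.51, a poorer match than for the other 4 genes.

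**Figure D5:**
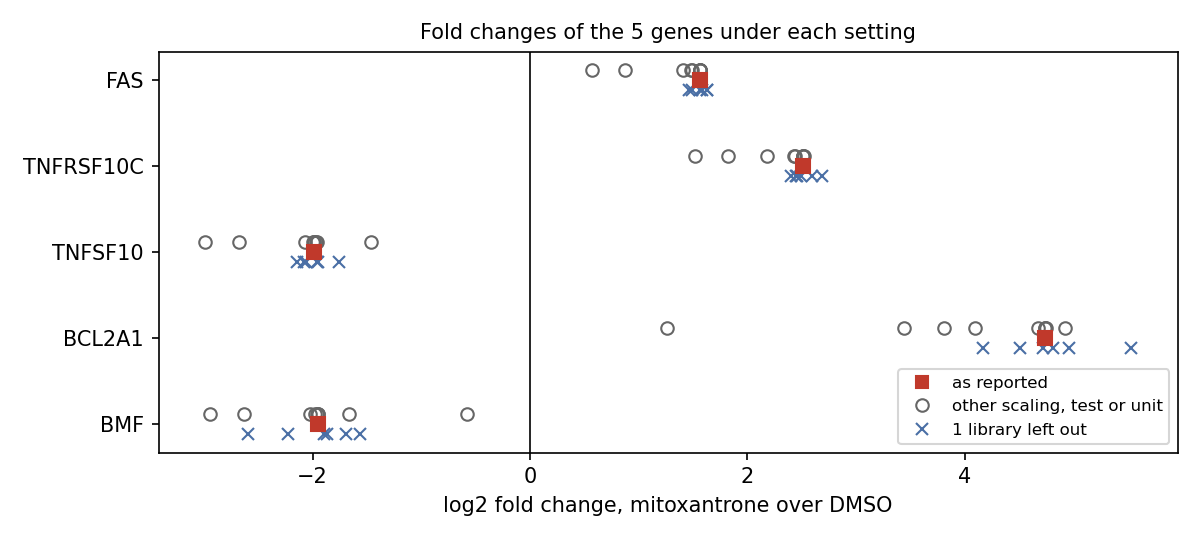
Log2 fold changes (mitoxantrone over DMSO) of the 5 genes as reported (red squares), under 9 other choices of scaling, test, filter or unit (open circles) and with 1 library left out (blue crosses). Each gene keeps its side of 0 under every setting; BCL2A1 ranges most widely, down to 1.26 on the log2(FPKM + 1) scale.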

How the data were processed

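The authors deposited 1 table, which holds raw read counts and FPKM values per gene and library, per the file headers. Gene length, a signal column of mean normalized counts, and the authors' test results (log2 fold change, standard error, Wald score, p-value and adjusted p-value) are also in it. Per the submitters' processing notes, HISAT2 2.0.1, cutadapt 1.9.1, Cufflinks 2.2.1, HTSeq 0.6.1 and DESeq2 were used, in roles not stated. The genome build, annotation and strand setting are each not given in the sources used here; 4 of 1267 gene starts matched by ID equalled those of GENCODE v29 (GRCh38).

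Size factors were solved from the deposited counts and mean normalized counts (largest relative error 5.0e-10), library totals from FPKM, and the number of tests (18304, between 18289 and 18318) from adjusted and raw p-values. Counts of all 1305 genes were tested for treatment with edgeR 4.0.16 (R 4.3.3; quasi-likelihood, no filter, threshold 0.05), checked on simulated data. Ranking listed genes alone makes adjusted p-values larger, and dispersions come from selected genes alone. Ratios used exact permutation in scipy 1.17.1. No library was a duplicate of another (chi-square per gene between replicates 2.91 to 25.4). Intervals (95%, exact) and the floor of 3 reads cover counting error only. Alternatives used limma 3.58.1, DESeq2 1.42.0, other size factors, a mean of at least 10, a replicate block and leaving out each library. The 5 genes, 14 gene lists, tests and alternatives were chosen with earlier results of these data known; 1 alternative, adding 1 FPKM in the ratio of BCL2A1 to BMF, was added after seeing the values. Named were the 5 genes, table genes of the TNF, death receptor, BCL2 and caspase lists, at most 2 rises and 2 falls of each other list, and the 2 genes most like each of the 5. ACTA2, AC107959.4 and the other overlapping genes were named after their values or positions were seen.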

Additional observations from a re-analysis of the deposited data

How the results depend on the processing

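All 5 genes kept their direction and an adjusted p under 0.05 in the 15 alternatives run on each. They come from a table selected on these same libraries, so this is not independent support. Adjusting over the table only, for example, passed all 1305 genes. Leaving out each library in turn gave log2 fold changes of 1.46 to 1.63 for FAS, 2.40 to 2.69 for TNFRSF10C, -2.14 to -1.76 for TNFSF10, 4.17 to 5.53 for BCL2A1 and -2.59 to -1.56 for BMF. TMM and DESeq2 size factors over the table lowered the median log2 fold change of the table by 0.69 and 0.99, and gave 0.87 and 0.57 for FAS, 1.82 and 1.52 for TNFRSF10C, -2.68 and -2.99 for TNFSF10, 4.09 and 3.81 for BCL2A1, and -2.63 and -2.94 for BMF. On the log2(FPKM + 1) scale BMF was at -0.58. Of all listed genes 1201 passed, 61.6% of them higher; 878 passed with TMM factors (41.7% higher) and 731 with DESeq2 factors (30.0% higher), a drop that follows from centring selected genes, and 1021 to 1178 with 1 library left out. The 3 ratios kept their direction in all 8 alternatives each, which the choice of genes had fixed. The replicate number as a block gave log2 fold changes of 1.56, 2.52, -1.97, 4.75 and -1.98 in the same order and 1199 calls, and changed the call of none of the 5. Whether same-numbered libraries shared more than a number is not given. Their deviations from the group means correlated at -0.44, -0.26 and 0.23 over 707 genes. Differently numbered pairs correlated at -0.48 (mitoxantrone replicate 3 with DMSO replicate 2) to 0.59 (mitoxantrone replicate 1 with DMSO replicate 2). With 3 libraries per group these values depend on one another, so they cannot decide whether libraries were paired. Depth limits BCL2A1 most, with 3 reads over the DMSO libraries.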
